A study of Mus musculus with 48 samples.

Results

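The genes described here are the 150 most expressed long noncoding RNA (lncRNA) genes of 4 cell types of the murine neurovascular unit (NVU) 24 h after an ischemic stroke. They were chosen by their level: among the 3488 autosomal genes that the deposited table labels as lincRNA, antisense RNA or processed transcript, of 24973 genes in all, the 150 with the highest mean normalized count over the 48 libraries were kept. A normalized count is a number of reads on a gene divided by a size factor of the library. Of the 150 members, 66 are lincRNAs, 34 antisense RNAs and 50 processed transcripts. The last members inside the limit were *C920006O11Rik*, *4933404O12Rik* and *Gm26772*, with means of 51.4, 50.7 and 50.6 normalized counts. The first ones outside it were *Gm16536*, *Gm16576* and *B430010I23Rik*, with means of 50.6, 49.9 and 49.9. The mean level was therefore not tested as a result. That mean holds the levels in all 4 cell types, so a member high in a single cell type can pass through that cell type alone. Differences between hemispheres were not used to choose the members.

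LncRNAs are transcripts without a long conserved reading frame. Some, such as *Malat1* and *Neat1*, stay in the nucleus, where they are part of nuclear speckles or hold paraspeckles together. Others are host genes, whose introns or exons are cut into small nucleolar RNAs (snoRNAs), which guide the modification of ribosomal RNA, or into microRNAs (miRNAs), which repress messenger RNAs through a short seed. Many more are transcribed from the opposite strand of a protein-coding gene or from its start, and are often read in the same cells as that neighbour.

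Male wild-type C57BL/6 mice aged 12 to 15 weeks underwent transient occlusion of the right middle cerebral artery (tMCAO) for 60 min and were killed 24 h after stroke. Microglia, astrocytes, pericytes and endothelial cells were then isolated by cell sorting from the ipsilateral (ischemic) and the contralateral hemisphere, each from pools of 3 to 4 mice, with 6 replicates per cell type and hemisphere. The contralateral hemisphere of the same mice served as control, so that effects of the stroke on both hemispheres cannot be seen. As these are bulk libraries of sorted cells, fewer cells of a type and less RNA per cell cannot be told apart.

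Each library summed to 10549900 to 16942165 normalized counts, and the 150 members together held 0.46 to 1.37% of them. Without the members *Gm26917*, *Gm15564* and *Gm42418*, described below, the share was 0.21 to 1.17%. In the ipsilateral microglia of replicate 5 it was 1.37% with them and 0.312% without. In 12 ipsilateral libraries, those of microglia and pericytes, the cell type in the title is the opposite of that in the column name. The column names were used, and all 16 marker genes of the 4 cell types then had their highest levels in the libraries of their own cell type. RNA of other cells was present. A list of 10 microglial genes reached 2.39 to 16.4% of its microglial level in ipsilateral endothelial cells of replicates 1 to 4, 3.88 to 19.5% in pericytes and 1.80 to 8.11% in astrocytes, but at most 0.411% in replicates 5 and 6. The summed level of 8 oligodendrocyte markers was 49062 to 402282 normalized counts in contralateral astrocytes, against 57129 to 114614 for 4 astrocyte markers. The ipsilateral microglia of replicate 2 stood apart, with 19551 normalized counts of 8 neutrophil markers against 4385 to 6972 in the other 5 libraries. The same list reached 13847 in an ipsilateral pericyte library and 10422 in an endothelial one, both of replicate 3. The part of these cells in the results below was not tested, and values without these libraries are given beside the regulated members and the list genes whose call they change.

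Per kilobase of exon, *Gm15564* (11950 normalized counts per kilobase, mean over 48 libraries), *Gm26917* (6230), *Gm42418* (2595), *Malat1* (2277) and *Cct6a* (1070) had the highest levels among the 10 members with the highest means. *Gm26917* (chr17:39843013-39846341, GRCm38) ends 13 bp before *Rn18s-rs5*, a copy of 18S ribosomal RNA in RefSeq, and *Gm42418* (chr17:39846958-39848788) overlaps that copy over 1245 bp. Reads of *Gm42418* in that stretch cannot be told apart from ribosomal RNA, and whether those of *Gm26917* and *Gm15564* are ribosomal was not tested. *Gm26917* spread widely within groups, from 4868 to 116415 normalized counts in ipsilateral microglia. *Cct6a*, a subunit of the chaperonin that folds actin and tubulin, is a processed transcript in the deposited table but protein-coding in RefSeq. Of the 110 members that RefSeq holds by symbol, 97 are lncRNAs there, 12 protein-coding and 1 a transcribed pseudogene. *Malat1* was highest in astrocytes, with a median of 29476 normalized counts (21110 to 74755) in the contralateral hemisphere, and lowest in pericytes, with a median of 3380 (1302 to 7737). *Neat1*, *Gas5* and *Tug1* were read in all 4 cell types. *Neat1* ranged from 305 to 7820 normalized counts in contralateral astrocytes and from 409 to 9727 in ipsilateral ones.

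In the contralateral hemisphere, 53 of the 150 members exceeded 10 normalized counts in all 6 libraries of each of the 4 cell types, and 37 did so in 1 cell type alone. To find cell type-enriched members, each cell type was compared with the other 3 by limma in the 24 contralateral libraries. A member called enriched was higher than in each of the others by at least 2 on the log2 scale, with an adjusted p (Benjamini-Hochberg) not above 0.05. Of the 150 members, 50 were enriched in a cell type: 12 in microglia, 20 in astrocytes, 13 in pericytes and 5 in endothelial cells. Of all 15103 genes tested, 5.86% were enriched in microglia, 11.2% in astrocytes, 3.79% in pericytes and 3.34% in endothelial cells. The members were chosen by a mean that includes these libraries, so the counts describe the list and were not tested against these shares. For 44 of the 50, every library of the own cell type exceeded every contralateral library of the others. The 50 were chosen from these same libraries, so this count describes them and is no separate test. In the ipsilateral hemisphere, 4 of the 5 endothelial, 11 of the 13 pericyte, 19 of the 20 astrocyte and 10 of the 12 microglial members were enriched again.

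**Figure D1:**
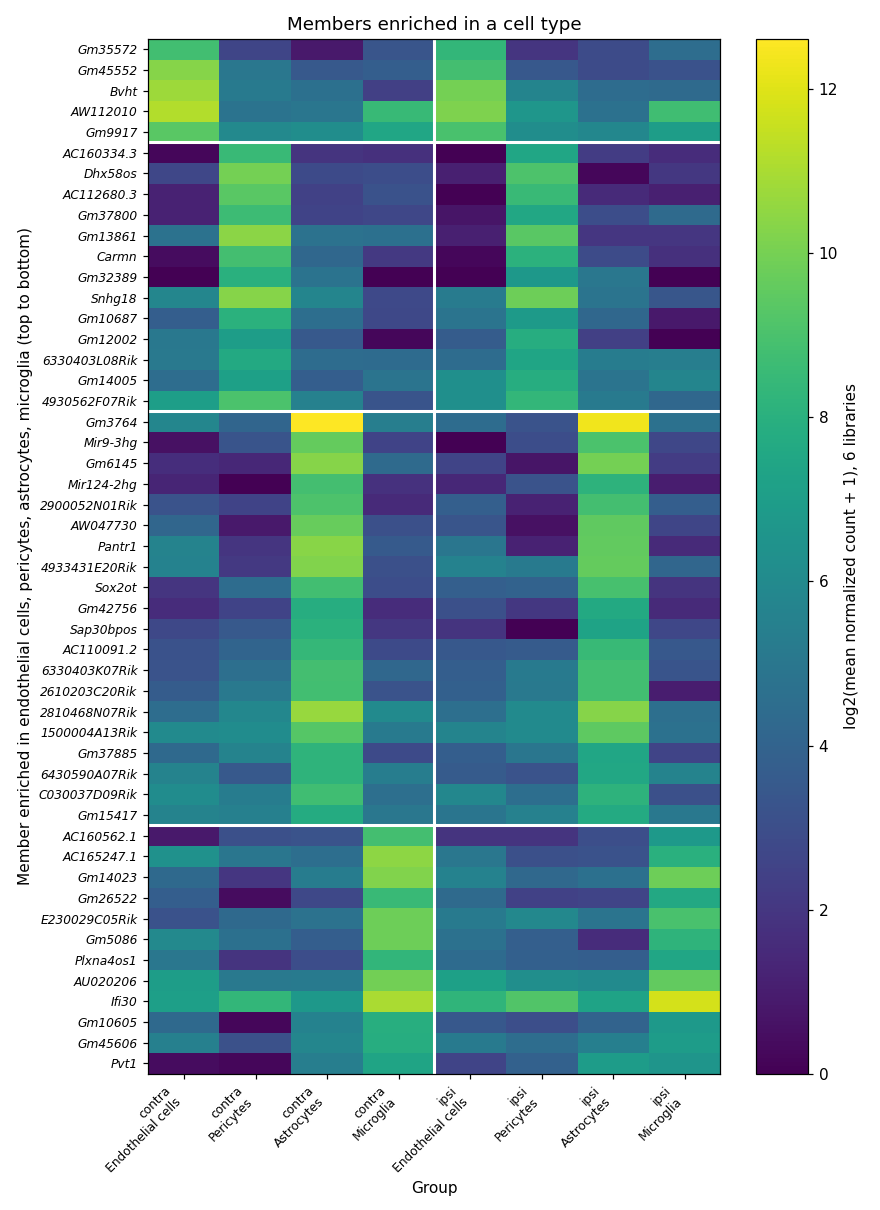
Levels of the 50 members enriched in a cell type of the contralateral hemisphere, as log2(mean normalized count + 1) over 6 libraries per group, with contralateral groups on the left and ipsilateral groups on the right. Rows are grouped from top to bottom into 5 endothelial, 13 pericyte, 20 astrocyte and 12 microglial members, and each block is brightest in its own cell type.

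Endothelial cells had the fewest enriched members. *Gm35572* ranged from 199 to 896 normalized counts in endothelial cells around a median of 376, and did not exceed 27 in any other contralateral library. It exceeded microglia, the cell type with the next level, by 6.59 on the log2 scale (SE 0.91). *Gm45552* had a median of 1286 (294 to 2597) against at most 79 elsewhere. *Bvht*, known as Braveheart from its role in heart cell development, had a median of 994 (844 to 5466) against at most 60 elsewhere. *AW112010*, a transcript known from immune cells, had an endothelial median of 1611 (1016 to 6138) and was also read in microglia, at up to 532. *Gm9917* had a median of 692 (408 to 870) against at most 451 elsewhere.

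The 5 leading pericyte-enriched members did not exceed 98 normalized counts in any other contralateral library. *AC160334.3* had a median of 364 normalized counts (300 to 453) in pericytes and at most 16 elsewhere, a log2 difference of 7.56 (SE 0.69) from the next cell type. *Dhx58os* (median 944, 873 to 1340) and *Gm13861* (median 1324, 1151 to 1666) did not exceed 20 and 98 elsewhere. *AC112680.3* had a median of 553 (324 to 1041) against at most 28, and *Gm37800* a median of 443 (178 to 578) against at most 22. *Carmn*, the host gene of the miRNAs that mark smooth muscle and mural cells, had a median of 436 (242 to 778) in pericytes and at most 56 elsewhere. *Snhg18*, a snoRNA host, was the only one of the 10 listed snoRNA host genes enriched in a cell type, with a pericyte median of 1227 (1011 to 1834) against at most 114 in the other contralateral libraries.

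Astrocyte libraries held the largest group. *Gm3764*, the host of miR-9-1, had a median of 5525 normalized counts (2595 to 10886) against at most 133 elsewhere, a log2 difference of 8.11 (SE 1.38). *Mir9-3hg*, the host of miR-9-3, had a median of 806 (422 to 1143) against at most 32. *Gm6145* had a median of 1076 (440 to 3058) against at most 57, *Mir124-2hg* 433 (184 to 814) against at most 9, and *2900052N01Rik* 528 (263 to 1022) against at most 31. *Sox2ot*, whose gene spans that of the stem cell factor *Sox2*, had a median of 446 (200 to 677) against at most 82. As oligodendrocyte markers were high in the same libraries, the level of a member in astrocytes and in oligodendrocytes cannot be told apart here.

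Among microglia-enriched members, *AC160562.1* had a median of 453 normalized counts (420 to 511) against at most 44 elsewhere, a log2 difference of 7.40 (SE 0.95). *AC165247.1* had a median of 1347 (1198 to 1619) in microglia, and reached 432 in one endothelial library. *Gm14023* (median 1029, 378 to 2532), *Gm26522* (median 330, 132 to 725) and *E230029C05Rik* (median 930, 449 to 1414) did not exceed 133, 29 and 73 elsewhere. *Ifi30*, a thiol reductase of lysosomes that RefSeq lists as protein-coding, had a median of 2087 (1482 to 2346) and was read at up to 569 in the other cell types. *Pvt1*, a neighbour of the oncogene *Myc*, was enriched in contralateral but not in ipsilateral microglia. Its medians in astrocytes were 34.5 in the contralateral and 102 in the ipsilateral hemisphere (log2 fold change 1.62, SE 0.56, adjusted p = 0.391).

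Of the 150 members, 84 have a protein-coding neighbour, meaning a gene on either strand that they overlap or whose start lies within 5 kb of theirs. Among the 26 enriched members with such a neighbour, 12 had at least 1 neighbour enriched in the same cell type: 3 of 6 in microglia, 4 of 11 in astrocytes, 5 of 7 in pericytes and 0 of 2 in endothelial cells. Of all genes tested, 5.86%, 11.2%, 3.79% and 3.34% were enriched in these cell types, in the same order. A member counted when any neighbour was enriched, whereas these shares are per gene, so the measures are unlike. Whether neighbours of enriched members are enriched more often than other genes was not tested. In pericytes these were *Gm13861* with *Cald1* (caldesmon, an actin-binding protein), *Snhg18* with *Sema5a* (a guidance cue), *Gm10687* with *Mcam* (an adhesion molecule of mural cells), *6330403L08Rik* with *Pdgfa* (a growth factor) and *4930562F07Rik* with *4930523C07Rik*. *Mcam* had a pericyte median of 21558 normalized counts (17340 to 25401) and *Gm10687*, whose start lies 77 bp away on the opposite strand, 233 (195 to 415). In astrocytes the pairs were *Pantr1* with *Pou3f3*, *Sox2ot* with *Sox2* and *2810468N07Rik* with *Sox8*, all transcription factors of the neural lineage, and *4933431E20Rik* with *Gstm5*, a glutathione transferase. *Pou3f3* had an astrocyte median of 716 (578 to 1104) and did not exceed 44 elsewhere. In microglia, *Gm14023* lies opposite the cytokine gene *Il1a* (median 15594, 7451 to 34262), *Gm26522* opposite *Ctsc*, the protease cathepsin C (median 19309, 17222 to 23140), and *Gm10605* opposite *Tpbgl*. The libraries do not keep the strand, so reads of overlapping genes on opposite strands cannot be told apart, except where the authors left out reads that overlap several genes.

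The stroke effect was the difference between ipsilateral and contralateral libraries within a cell type, tested by limma on log2(normalized count + 1) in 12 libraries. A regulated gene differed by at least 1.5-fold with an adjusted p not above 0.05, and exceeded 10 normalized counts in the 6 replicates of at least 1 hemisphere. In endothelial cells, 1 of 134 members tested was upregulated and 0 were downregulated, against 0.362% and 0.128% of all genes. In pericytes, 1 of 132 was upregulated and 0 downregulated (all genes 0.441% and 0.581%), and in astrocytes 1 of 137 was upregulated and 0 downregulated (0.334% and 0.00655%). In microglia, 2 of 126 were upregulated and 12 downregulated (4.29% and 6.27%). At an unadjusted p under 0.05, 42 members differed in microglia, 16 in astrocytes, 20 in pericytes and 15 in endothelial cells. These were 33.3% of the members tested in microglia, 11.7% in astrocytes, 15.2% in pericytes and 11.2% in endothelial cells, near the 28.0%, 9.28%, 15.4% and 11.9% of all genes. When the replicate number entered the fit as a block, since both hemispheres of a replicate came from the same mice, 4 members were upregulated and 19 downregulated in microglia, 2 and 0 in astrocytes, 1 and 3 in pericytes, and 1 and 1 in endothelial cells. The same fit called 5.23% of all genes upregulated and 8.11% downregulated in microglia, 1.19% and 0.229% in astrocytes, 0.86% and 1.26% in pericytes, and 0.536% and 0.249% in endothelial cells.

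The median log2 fold change of the members was lower than that of all genes in each cell type: -0.60 against -0.18 in microglia, -0.23 against -0.06 in astrocytes, -0.12 against -0.04 in pericytes and -0.36 against -0.03 in endothelial cells. In microglia 75.4% of the members and 59.5% of all genes lay below 0. In endothelial cells the shares were 68.7% and 52.1%. In contralateral endothelial cells, replicate 2 held a larger part of the members than the other libraries. Without *Gm26917*, *Gm15564* and *Gm42418* it was 0.615% against 0.272 to 0.335%. The part of that library in the endothelial values was not tested. The medians and shares of log2 fold changes describe the list and were not tested.

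**Figure D2:**
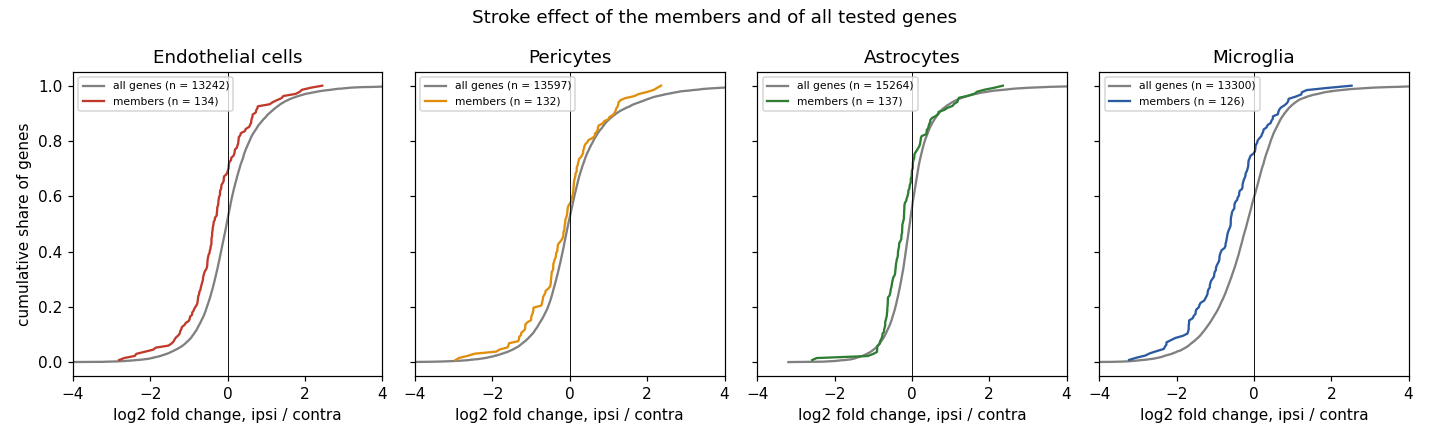
Cumulative share of genes (vertical axis) by log2 fold change of ipsilateral over contralateral libraries (horizontal axis) in each of the 4 cell types, for all genes tested (grey) and for the members (coloured). The members' curve lies to the left of that of all genes over most of its range in microglia, where the medians were -0.60 and -0.18.

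*AI506816* (ENSMUSG00000105987, chr5:23699070-23712667, minus strand) was the only member regulated in more than 1 cell type. It is a processed transcript that GENCODE annotates as holding *Mir3096*, a small RNA gene of the snoRNA class, and no role is stated for it in the sources used here. In endothelial cells it ranged from 153 to 535 normalized counts in the contralateral hemisphere (median 294) and from 550 to 1940 in the ipsilateral one (median 1422). The groups did not overlap, and the level was 4.41-fold higher (log2 fold change 2.14, SE 0.34, adjusted p = 0.0139), with 6 of 6 pairs higher. In astrocytes it rose from a median of 161 (105 to 273) to 608 (279 to 1083), 3.67-fold (log2 fold change 1.88, SE 0.31, adjusted p = 0.0186), again without overlap and in 6 of 6 pairs. In pericytes it rose from 503 (420 to 685) to 1271 (596 to 1664), 2.23-fold (log2 fold change 1.16, SE 0.24, adjusted p = 0.0361), and only the ipsilateral replicate 1, at 596, lay within the contralateral range.

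The level of *AI506816* was highest in microglia, with a contralateral median of 1370 (922 to 1616) and an ipsilateral median of 2794 (910 to 3524). Of the 6 pairs, 5 were higher, and replicate 2 fell from 1616 to 910. The log2 fold change of 0.89 (SE 0.28) did not pass the test in microglia (adjusted p = 0.0559), and passed it with the replicate block (adjusted p = 0.0406) and without replicate 2 (log2 fold change 1.23, adjusted p = 0.000543). In replicates 5 and 6, in which microglial RNA was at most 0.429% in the other cell types, *AI506816* was 210 and 279 normalized counts in contralateral endothelial cells and 1069 and 1343 in ipsilateral ones, a mean log2 difference of 2.30 against 2.06 in replicates 1 to 4. In pericytes the mean log2 difference was 1.36 in replicates 5 and 6 and 1.05 in replicates 1 to 4, and in astrocytes 1.29 and 2.17. The call depended on which replicates were in the fit. It was lost in endothelial cells without replicate 4, 5 or 6 and kept there in replicates 5 and 6 alone (adjusted p = 0.0155). In pericytes it was lost without any one of replicates 2 to 6, and in astrocytes without any one of replicates 2 to 5. In these 2 cell types it did not pass in replicates 5 and 6 alone (adjusted p = 0.0575 and 0.967). The highest adjusted p among these fits and the other alternatives was 0.213 in endothelial cells, while the log2 fold change stayed between 1.91 and 2.40.

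**Figure D3:**
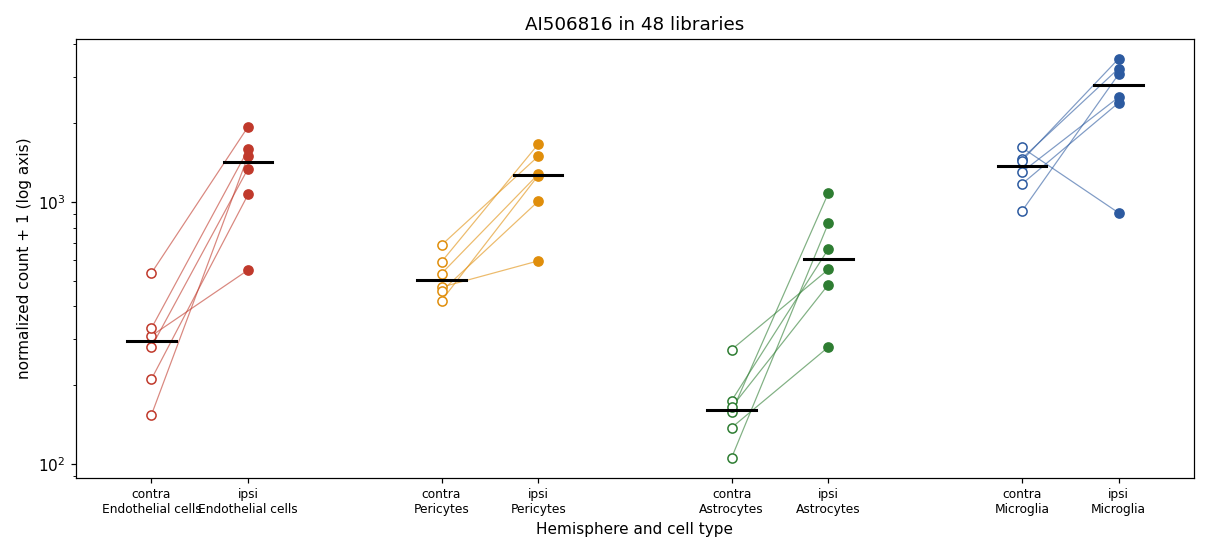
Normalized count + 1 of AI506816 (log axis) in the contralateral (open) and ipsilateral (filled) libraries of the 4 cell types; lines join libraries of the same replicate, and bars are medians of 6. All 6 lines rise in endothelial cells, pericytes and astrocytes, and 5 of 6 in microglia.

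The window around the annotated start of *AI506816* is shown because it was the member with the widest rise, together with that of *Mir22hg*, one of the members upregulated in microglia. Both are taken from RefSeq (GRCm38.p6), 5′ to 3′ along the gene, with 250 bases before the start and 50 after it. Capitals mark matches, on either strand, to the GC box GGGCGG or the CCAAT box CCAAT. The AI506816 window is chr5:23712618-23712917 on the minus strand and the Mir22hg window is chr11:75461289-75461588 on the plus strand.
AI506816: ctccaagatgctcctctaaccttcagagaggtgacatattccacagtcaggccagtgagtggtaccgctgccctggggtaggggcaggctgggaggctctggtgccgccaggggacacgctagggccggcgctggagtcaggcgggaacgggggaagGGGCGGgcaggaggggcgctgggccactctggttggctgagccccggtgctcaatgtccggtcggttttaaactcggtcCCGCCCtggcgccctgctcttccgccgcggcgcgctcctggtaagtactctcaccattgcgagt
Mir22hg: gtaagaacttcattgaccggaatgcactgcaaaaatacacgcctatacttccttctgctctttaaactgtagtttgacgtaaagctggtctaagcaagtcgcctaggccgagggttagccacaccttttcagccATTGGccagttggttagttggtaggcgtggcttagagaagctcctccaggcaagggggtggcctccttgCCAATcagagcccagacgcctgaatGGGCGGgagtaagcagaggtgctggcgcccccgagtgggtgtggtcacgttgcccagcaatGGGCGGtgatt
The window of *AI506816* held 2 GC boxes, 93 and 14 bases before the start, and no CCAAT box. That of *Mir22hg* held 2 GC boxes and 2 CCAAT boxes. Of all 32817 promoter windows in the table, 35.6% held a GC box and 37.4% a CCAAT box. The E-box CACGTG, the cAMP response element TGACGTCA, the AP-1 site TGACTCA, the TATA box TATAAA, TTCNNNGAA and TGACNNNGC were searched on both strands as well and were in neither window, whereas 7.15%, 1.79%, 5.20%, 13.6%, 8.29% and 12.4% of all windows held them.

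In microglia, 12 members were downregulated. *AC165247.1*, itself enriched in microglia, fell from a median of 1347 normalized counts (1198 to 1619) to 207 (59 to 512), a log2 fold change of -2.80 (SE 0.42, adjusted p = 0.00121). *Gm5086*, also enriched in microglia, fell from 956 (717 to 1032) to 244 (38 to 667), a log2 fold change of -2.03 (SE 0.49, adjusted p = 0.0169). In both, the 6 ipsilateral libraries lay below all contralateral ones. The summed level of the 10 microglial genes was also lower there without overlap, 431994 to 690727 normalized counts against 753126 to 838945. The 12 members enriched in microglia had a median log2 fold change of -0.90, beside -0.73 for all 885 genes enriched in microglia. Enriched genes were chosen as high in contralateral libraries, which are also the baseline of the stroke effect. *Gm26532* fell from 136 (90 to 265) to 32 (14 to 40), a log2 fold change of -2.33 (SE 0.41, adjusted p = 0.00287), and was called under each of 16 alternatives, the cell types of the titles not among them. *D730003I15Rik* fell from 216 (116 to 254) to 46.0 (0 to 96) with the widest error of the 12, a log2 fold change of -3.04 (SE 0.90). Its 0 was in replicate 2, without which the log2 fold change was -2.05 (SE 0.54, adjusted p = 0.0215), and its call was lost under 9 of 16 alternatives. Of the 12 members, 10 were lower in 6 of 6 pairs, and for 7 the groups did not overlap. The 12 were called from these same values, so these counts describe them and are no further test.

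*Tug1*, a nuclear lncRNA widely read in the brain, fell in microglia from a median of 1159 normalized counts (854 to 1553) to 713 (582 to 1019), a log2 fold change of -0.65 (SE 0.20, adjusted p = 0.0433). All 6 pairs were lower, but the groups overlapped, and the call was lost without any one of replicates 1, 3, 4, 5 and 6. *Adap2os* fell from 473 (295 to 571) to 195 (123 to 249), *E130307A14Rik* from 135 (61 to 294) to 37.0 (11 to 71) and *Gm37494* from 278 (195 to 368) to 113 (72 to 284). *Gm45606* fell from 228 (173 to 260) to 128 (83 to 164), *B230354K17Rik* from 150 (102 to 180) to 54.0 (24 to 135), *5031425E22Rik* from 143 (97 to 195) to 72.5 (51 to 81), and *4930481A15Rik* from 106 (35 to 176) to 29.5 (12 to 76). Only in *4930481A15Rik* and *E130307A14Rik* was a pair higher in the ipsilateral library, 1 of 6 each.

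The members upregulated in microglia were *Cct6a* and *Mir22hg*. *Cct6a* rose from a median of 3232 normalized counts (2917 to 3589) to 6102 (5552 to 6484), a log2 fold change of 0.90 (SE 0.12, adjusted p = 0.000585), in 6 of 6 pairs and without overlap. Its log2 fold change in endothelial cells was 0.73 (SE 0.20, adjusted p = 0.135), with no overlap between 1696 to 3222 and 3284 to 5040. *Mir22hg*, the host of miR-22, rose in microglia from 126 (87 to 179) to 236 (174 to 490), a log2 fold change of 1.08 (SE 0.31, adjusted p = 0.0392), in 6 of 6 pairs. Its call was lost without any one of the 6 replicates.

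Without replicate 2 of the microglia, 27 members were regulated, 2 of them upregulated and 25 downregulated. They shared 13 members with the 14, which is 92.9% of the first and 48.1% of the second list. The call lost was that of *Mir22hg* (log2 fold change 0.82, adjusted p = 0.0676). Of all genes, 5.51% were upregulated and 8.92% downregulated without replicate 2. With replicates 5 and 6 alone, 2 members were upregulated and 12 downregulated, beside 2.92% and 2.71% of all genes. The 12 members downregulated in the fit of all 6 replicates had log2 fold changes from -2.69 to -0.67 without replicate 2, where all 12 were called. In replicates 5 and 6 these were from -2.04 to -0.43, and 5 were called. Without replicate 3 the log2 fold changes stayed negative. Only *AC165247.1*, *Adap2os* and *Gm26532* of the 12 were called there, and *Gm5086*, for one, did not pass (adjusted p = 0.0807).

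**Figure D4:**
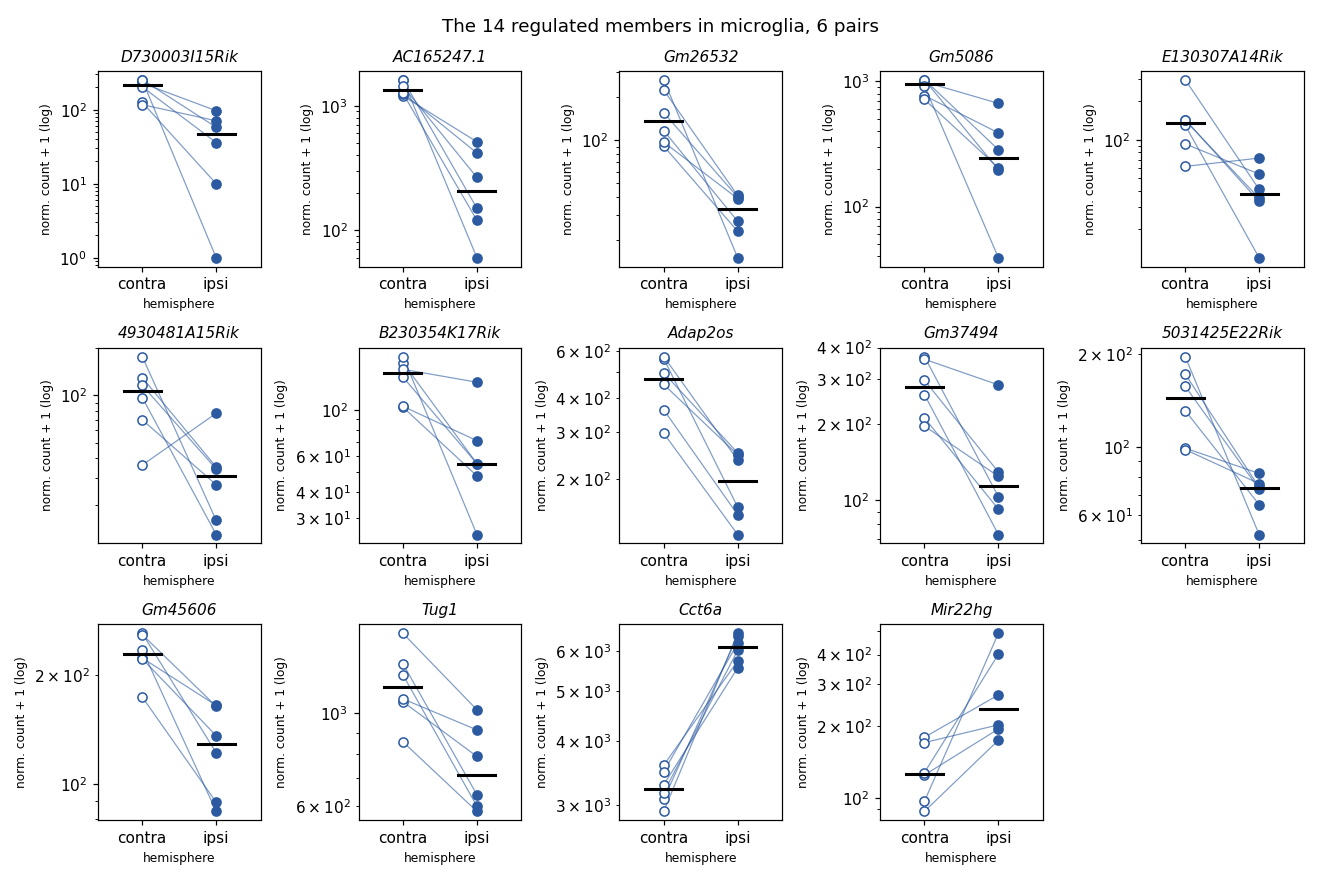
Normalized count + 1 (log axes) of the 14 members regulated in microglia in the 6 contralateral (open) and 6 ipsilateral (filled) libraries; lines join libraries of the same replicate and bars are medians. The panels of 12 members fall and those of Cct6a and Mir22hg rise.

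Of the 14 members, 8 have a protein-coding neighbour. *Adap2*, a regulator of Arf GTPases that *Adap2os* overlaps, had a log2 fold change in microglia of -1.09 (SE 0.22), beside -1.26 (SE 0.26) for the antisense RNA. *Kmt2e*, a chromatin protein starting 522 bp from *5031425E22Rik*, had -1.05 (SE 0.18), beside -0.98 (SE 0.30). *Morc2a*, 682 bp from *Tug1*, had -0.94 (SE 0.27), beside -0.65 (SE 0.20). All 3 neighbours passed the test. *Rev3l*, beside *E130307A14Rik*, had -1.13 (SE 0.54) and did not pass it. The neighbours of *Gm45606* (*Slc43a2*, an amino acid transporter) and *B230354K17Rik* (*Cdc5l*, a splicing factor) lay near 0, at -0.02 (SE 0.16) and -0.03 (SE 0.20). Those of *Cct6a* (*Psph*, an enzyme of serine synthesis) and *4930481A15Rik* (*Drap1*, a transcriptional corepressor) had 0.53 (SE 0.27) and 0.51 (SE 0.34) and did not pass the test.

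In pericytes the members called only with the block were *Gm13861*, *Dhx58os* and *AC160334.3*, all enriched in pericytes. *Dhx58os* had 873 to 1340 normalized counts in the contralateral and 339 to 786 in the ipsilateral hemisphere (log2 fold change -0.94, SE 0.22, adjusted p = 0.0582, with the block 0.0257). *Gm13861* had medians of 1324 and 635 (adjusted p = 0.0697, with the block 0.0354), and *AC160334.3* had 300 to 453 against 85 to 235 (adjusted p = 0.0620, with the block 0.0344). Neither these 3 nor *AI506816* passed without replicate 3, and in replicates 5 and 6 alone the log2 fold changes were -0.59 for *Dhx58os*, -0.56 for *Gm13861* and -0.76 for *AC160334.3*, which did not pass. The median log2 fold change of the 13 pericyte-enriched members in pericytes was -0.95, beside -0.71 for all 573 pericyte-enriched genes, which were likewise chosen as high in the contralateral libraries. *Carmn* was lower in 6 of 6 pairs (medians 436 and 263, log2 fold change -0.95, SE 0.47, adjusted p = 0.351), with -0.71 without replicate 3 and -0.40 in replicates 5 and 6. In astrocytes the block added *Gm26772*, with 17 to 68 against 27 to 511 normalized counts, and in endothelial cells *9530026P05Rik*, with 66 to 240 against 12 to 39. In replicates 5 and 6 alone their log2 fold changes were 0.89 and -1.89, and neither passed.

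The nuclear lncRNAs of the list written for this work, *Malat1*, *Neat1*, *Tug1*, *Kcnq1ot1* and *Pantr1*, were not regulated except for *Tug1* in microglia. *Neat1* in microglia had medians of 890 and 475 normalized counts (log2 fold change -1.07, SE 0.44, adjusted p = 0.125). *Malat1* had log2 fold changes of -0.92 (SE 0.48) in endothelial cells and -0.22 (SE 0.54) in microglia. *Kcnq1ot1*, the only imprinted lncRNA among the members, had log2 fold changes from -0.69 (SE 0.53) in microglia to 1.02 (SE 1.01) in pericytes. *Pantr1* was lower in 6 of 6 astrocyte pairs, from 1408 (682 to 1820) to 691 (543 to 1156), without passing the test (log2 fold change -0.76, adjusted p = 0.371). *Lncpint*, a lncRNA induced by p53, had -1.43 (SE 0.63, adjusted p = 0.158) in microglia.

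Of the members, 14 hold snoRNA genes, with *Gas5* (9 snoRNA genes) and *Snhg1* (8) holding the most. *Gas5*, a growth arrest transcript, was read in all cell types, with contralateral medians of 1170 normalized counts in microglia, 850 in astrocytes, 815 in pericytes and 1037 in endothelial cells. In astrocytes 11 of the 14 had a log2 fold change above 0, with a median of 0.66 beside -0.06 for all genes, whereas the medians were -0.43 in microglia, -0.06 in pericytes and -0.22 in endothelial cells. In astrocytes *Zfas1*, *Snhg1*, *Snhg17* and *2410006H16Rik* were higher in 6 of 6 pairs, but of the 14 only *AI506816* passed the test. *Gas5* had medians of 850 and 1480 there (log2 fold change 0.52, SE 0.30, adjusted p = 0.641), and *1110038B12Rik* had 31 to 90 against 72 to 232 normalized counts (log2 fold change 1.22, SE 0.41, adjusted p = 0.388). *Zfas1* had a log2 fold change of 0.69 (SE 0.37) in astrocytes and -0.93 (SE 0.35, adjusted p = 0.101) in microglia, and *Snhg8* -0.98 (SE 0.34, adjusted p = 0.0731) in microglia, where it passed with the block (0.0492). *Snhg5*, *Snhg6*, *Snhg15* and *Snhg20* were not regulated in any cell type, with log2 fold changes from -1.40 (*Snhg20* in endothelial cells) to 1.09 (*Snhg15* in astrocytes). Of 15 proteins of snoRNA particles, *Nop56* was upregulated in endothelial cells, from 589 to 1176 normalized counts (log2 fold change 1.16, SE 0.23, adjusted p = 0.0398), and *Nhp2* (1.22, SE 0.29) and *Nufip1* (0.72, SE 0.21) in microglia, with 0 downregulated in any cell type. Of all genes, 0.362% were upregulated in endothelial cells and 4.29% in microglia. *Nop56* did not pass without replicate 3 (adjusted p = 0.176) and passed in replicates 5 and 6 alone (log2 fold change 0.84, adjusted p = 0.0465), and *Nufip1* did not pass without replicate 2 (adjusted p = 0.0595). Neither *Nhp2* (adjusted p = 0.0710) nor *Nufip1* (0.141) passed without replicate 3. In replicates 5 and 6 alone *Nhp2* passed (0.0232) and *Nufip1* did not (0.306). With the block *Nop58* was upregulated as well, in astrocytes (adjusted p = 0.0191) and microglia (0.0389).

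MiRNA genes lie in 12 members. The mature miRNAs of the hosts described here are shown with their seeds (bases 2 to 8) in capitals, since 2 pairs of hosts carry miRNAs with the same seed. The sequences are those of the RefSeq miRNA table (GRCm38.p6). miR-9-5p lies in both *Gm3764* and *Mir9-3hg*, miR-125b-5p in both *Mir99ahg* and *2610203C20Rik*, and the seed of miR-99a-5p in *Mir99ahg* is that of miR-100-5p in *2610203C20Rik*.
miR-9-5p: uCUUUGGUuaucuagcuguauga
miR-125b-5p: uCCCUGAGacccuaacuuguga
miR-99a-5p: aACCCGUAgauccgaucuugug
miR-100-5p: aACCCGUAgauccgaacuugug
let-7c-5p: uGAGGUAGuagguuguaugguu
miR-22-3p: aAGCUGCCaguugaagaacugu
miR-15a-5p: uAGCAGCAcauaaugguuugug
miR-16-5p: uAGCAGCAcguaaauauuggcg
The miR-9 hosts were both enriched in astrocytes, with contralateral medians of 5525 and 806 normalized counts. *Mir99ahg* and *2610203C20Rik* differed: in contralateral microglia *Mir99ahg* had a median of 226 (93 to 599) and *2610203C20Rik* 0 (0 to 43), and in astrocytes 597 (329 to 1383) and 285 (237 to 998). *Dleu2*, the host of miR-15a and miR-16-1, whose seeds are alike, had medians of 262 (117 to 527) and 149 (87 to 220) in the hemispheres of microglia (log2 fold change -0.86, SE 0.42, adjusted p = 0.195). In astrocytes 10 of 12 hosts had a log2 fold change below 0 (median -0.51), beside 55.6% of all genes (median -0.06). The hosts *Gm3764*, *Mir9-3hg*, *Gm6145*, *Mir124-2hg*, *Sox2ot* and *2610203C20Rik* are astrocyte-enriched, that is, chosen as high in the contralateral libraries. Of the 20 astrocyte-enriched members, 17 lay below 0 in astrocytes (median -0.49). Only *Mir22hg* in microglia was regulated among all hosts. The libraries measured the host transcripts, not the mature miRNAs.

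**Figure D5:**
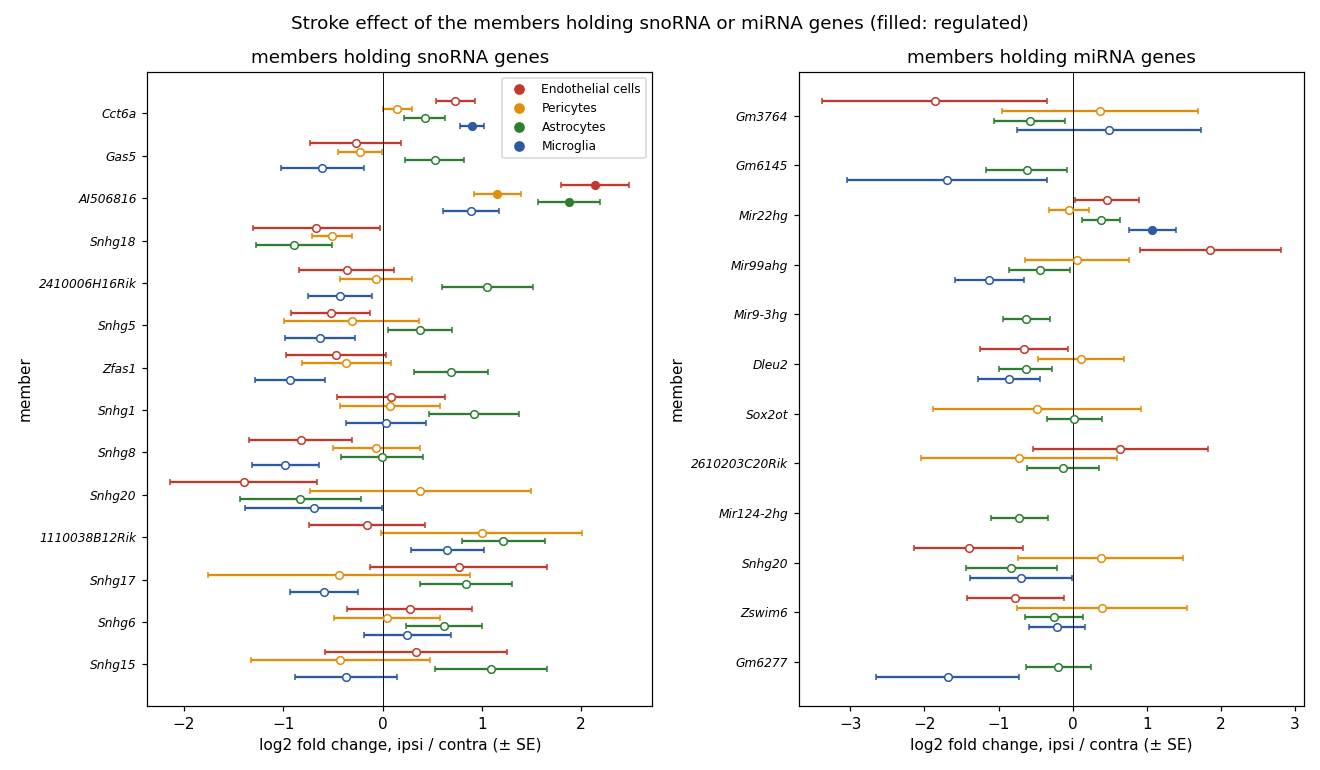
Log2 fold change of ipsilateral over contralateral libraries (horizontal axis, bars are SE) of the 14 members holding snoRNA genes (left) and the 12 holding miRNA genes (right), by cell type. Filled points are regulated, namely Cct6a and Mir22hg in microglia and AI506816 in endothelial cells, pericytes and astrocytes.

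Among protein partners of lncRNAs, 1 of 17 paraspeckle proteins was regulated in microglia, *Hnrnpa1* (upregulated from a median of 517 to 917 normalized counts, log2 fold change 0.80, SE 0.16). With the block *Hnrnph3* (-0.91, adjusted p = 0.0490), *Taf15* (-1.29, adjusted p = 0.0390) and *Cirbp* (-0.97, adjusted p = 0.0397) were downregulated there as well. Of 18 nuclear speckle proteins, the splicing kinase *Clk1* was downregulated in microglia (3991 to 2080, log2 fold change -1.01, SE 0.29), and of 16 factors of nonsense-mediated decay *Casc3* was downregulated there (-1.36, SE 0.39). Of 13 miRNA processing genes tested, 4 were downregulated in microglia: the Argonaute genes *Ago1* (-0.93, SE 0.27) and *Ago4* (-2.44, SE 0.59) and the Argonaute partners *Tnrc6b* (-1.18, SE 0.22) and *Tnrc6c* (-1.12, SE 0.32). Of all genes, 4.29% were upregulated and 6.27% downregulated in microglia, and 5.23% and 8.11% with the block. Whether these lists differ from all genes was not tested. *Ago1* did not pass without replicate 2 (adjusted p = 0.0524). Without replicate 3, *Tnrc6b* (adjusted p = 0.0323) and *Hnrnpa1* (0.0270) passed in microglia. *Clk1* (0.111), *Casc3* (0.114), *Ago1* (0.130), *Ago4* (0.0903) and *Tnrc6c* (0.159) did not. In replicates 5 and 6 alone, only *Tnrc6b* of these genes passed in microglia (0.0202). *Tnrc6c* was also downregulated in endothelial cells (-1.14, SE 0.23), but not without replicate 2 (adjusted p = 0.0535) or replicate 3 (0.207). In pericytes no gene of these 4 lists was regulated, and in astrocytes *Hnrnpa1* was, with the block alone (log2 fold change 0.68, adjusted p = 0.0243, without the block 0.186).

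Whether the stroke effect of a member differed between the 4 cell types was tested by a moderated F test of limma over all 48 libraries. Of all 15003 genes, 0.66% passed it and 0 of the 150 members did, while 15 members (10%) had an unadjusted p under 0.05, as had 11.3% of all genes. The smallest were those of *Gm45606* (adjusted p = 0.133), *Cct6a* (0.250), *D730003I15Rik* (0.279), *Mir99ahg* (0.282) and *B230354K17Rik* (0.283). A call in microglia that was missing in another cell type was therefore not shown to differ between them. For *AI506816* the adjusted p of this test was 0.325. The F test took the 48 libraries as independent, with a common variance per gene across cell types, although libraries of a replicate came from the same mice. With the replicate number as a block, no member passed it either.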

How the data were processed

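RNA of sorted cells was prepared with the SMART-Seq HT kit, which does not keep the strand, and sequenced by the authors in 48 libraries. According to the methods and the labels, the authors trimmed reads with Trimmomatic, aligned the reads to GRCm38 by STAR and assigned them to genes by featureCounts, leaving out reads that mapped to several places or overlapped several genes, and then normalized the counts with DESeq2. The deposited values are such normalized counts in whole numbers, treated here as a score and not as raw counts, so that no count model was used.

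Groups and replicate numbers were taken from the column names in the labels. All tests were made with R 4.3.3 and limma 3.58.1 (functions lmFit and eBayes, trend on) after a log2(normalized count + 1) transformation, which understates the changes of low genes. Genes averaging 10 or more normalized counts over the libraries of a fit were tested, two-sided and with Benjamini-Hochberg adjustment over all genes tested. Replicates are pools of mice. Both hemispheres and all 4 cell types of a replicate came from the same mice, and deviations of same-numbered libraries from their group means correlated by a mean of 0.135 in microglia, 0.380 in astrocytes, 0.227 in pericytes and 0.227 in endothelial cells, against -0.0759 to -0.0258 for other numbers. Tables and plots were made with Python 3.11.15, pandas 2.3.3 and matplotlib 3.10.9. The fit was tested on simulated data: of 100 genes changed by 1 on the log2 scale it recovered 29 in microglia, 35 in astrocytes, 30 in pericytes and 17 in endothelial cells, and of 100 changed by 2, 80, 81, 67 and 67. Depth is not known from these values, and the number of replicates limits the precision.

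The members, the gene lists and the rule for naming genes were chosen with earlier results of these data known. Named are the 10 members with the highest means, the members of the role lists, up to 5 regulated members per direction and cell type with the smallest adjusted p, members regulated in 2 or more cell types, 5 enriched members per cell type, the 5 members with the smallest p of the difference between cell types, the members at the limit, and neighbours of these. Others, such as the further members regulated in microglia, those called only with the block, *Ifi30*, *2410006H16Rik*, *1110038B12Rik* and *2610203C20Rik*, were named after their values were seen. Alternatives were the pseudocounts 0.1 and 10, no filter or a mean of 50 and more, the replicate block, a joint fit, rescaling within a cell type, each replicate left out, replicates 1 to 4, no fold threshold, a difference of 1 for enrichment, ipsilateral libraries, and the cell types of the titles. Replicates 5 and 6 alone were added after seeing the data.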

Additional observations from a re-analysis of the deposited data

Results flagged for a closer look

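Of 53 groups of 6 values examined for the regulated members and the leading enriched members, 7 held a library far from the other 5; chance alone gives about 1 in 20. In contralateral endothelial cells, replicate 2 had 5466 normalized counts of *Bvht* against 844 to 1172 in the others, and 6138 of *AW112010* against 1016 to 2116. That library also stood apart as a whole, with a sum of 15633875 normalized counts against 10936238 to 11611632. Without *Gm26917*, *Gm15564* and *Gm42418*, the members held 0.615% of it against 0.272 to 0.335% of the others. *Malat1* was 42894 there against 5273 to 10939. In contralateral pericytes, replicate 5 had 1340 of *Dhx58os* against 873 to 984. In contralateral astrocytes, replicate 3 had 3058 of *Gm6145* against 440 to 1351. In microglia, the ipsilateral replicate 6 had 284 of *Gm37494* against 72 to 128, the contralateral replicate 3 had 294 of *E130307A14Rik* against 61 to 143, and the ipsilateral replicate 2 had 76 of *4930481A15Rik* against 12 to 34.

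The stroke effects of 2 members pointed in opposite directions in 2 cell types, with all 6 pairs moving one way in each. *AW112010* had a log2 fold change of 2.26 in pericytes and -0.76 in endothelial cells, and the test of the difference over the 4 cell types gave an adjusted p of 0.448. Its pericyte level was low, 0 to 47 normalized counts in the contralateral and 17 to 174 in the ipsilateral hemisphere. The widest change there was in replicate 3, from 0 to 174. *AW112010* was also read in microglia, and the part of microglial RNA in the pericyte values was not tested. *Gm37800* had 2.53 in microglia, where it did not exceed 35 normalized counts, and -1.26 in pericytes, with an adjusted p of 0.289. The differences therefore did not pass that limma test.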

How the results depend on the processing

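The log2 fold changes of the 17 calls of regulated members kept their direction under each alternative except with the cell types of the titles, where *5031425E22Rik* in microglia had 0.082 and *E130307A14Rik* 0.40. With those titles 64 members were regulated in pericytes and 67 in microglia. The numbers of regulated members moved with the other settings. Without a filter they were 6 in microglia, 0 in astrocytes, 0 in pericytes and 2 in endothelial cells, and 2 in pericytes for genes averaging 50 or more. With the replicate block they were 23, 2, 4 and 2 in the same order. One fit of all libraries gave 9 in microglia, 3 in pericytes and 3 in endothelial cells. With replicates 1 to 4 alone they were 4, 2, 0 and 0, and with replicates 5 and 6 alone, an alternative chosen after seeing the data, 0 in pericytes and astrocytes. The fold changes of *AI506816* in astrocytes had adjusted p-values of up to 0.967, with replicates 5 and 6 alone. Leaving out 1 replicate gave 0 to 1 in endothelial cells, pericytes and astrocytes, and 4 to 27 in microglia. The numbers of enriched members stayed within 1.5 times under each alternative, except that 7 were enriched in microglia with replicates 1 to 4 alone. With a pseudocount of 10, 1 member (*AC160562.1*) had a stroke effect that differed between cell types. The causes were not tested. With 6 pairs per cell type, most changes of 1 on the log2 scale were not recovered in the simulated data, in which few genes changed. A missing call does not show that a member did not change.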

Other observations

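RefSeq holds a promoter window for 92 of the 150 members. Of these, 59.8% held the GC box GGGCGG, beside 35.6% of all windows, 44.6% the CCAAT box, beside 37.4%, and 8.70% the cAMP response element TGACGTCA, beside 1.79%. The AP-1 site TGACTCA was held by 4.35% of these members and by 5.20% of all windows. A member counted when any of its windows held the motif, whereas the shares of all windows are per single window, so the 2 measures are unlike. The members were chosen by high levels and these shares were not tested.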
